A study of Homo sapiens with 12 samples.

Results

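The genes described here encode 10 transcription factors and cofactors that run the cell cycle programme: E2F1, E2F2, E2F3, E2F7, E2F8, RBL1, FOXM1, MYBL2, LIN9 and TFDP1. They were listed by name, and each had a probe set carrying its symbol alone, so all 10 were read out of a table of 18417 measured genes. RNA came from EA.hy926, an endothelial line derived by fusion of a human umbilical vein cell with the lung carcinoma line A549. The 4 groups had 3 biological replicates each, hybridised to 12 arrays. Lo pemetrexed cells had been adapted to a medium with 23 nM folic acid and were given 0.5 uM pemetrexed for 48 h once confluent, and Lo control cells were the same adapted culture without the drug. Hi pemetrexed and Hi control cells were the corresponding cultures in medium with 9 uM folic acid. All cultures carried the same serum and antibiotic supplements, and medium had been renewed 24 h before treatment. Pemetrexed is an antifolate that blocks synthesis of thymidylate and purines. Because Lo cells were a separately adapted culture of 1 line, folate level and any other difference between the cultures cannot be told apart.

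E2F proteins bind promoters of S phase genes as dimers with a DP partner such as TFDP1. E2F1, E2F2 and E2F3 activate these genes when the retinoblastoma protein is phosphorylated, whereas E2F7 and E2F8 are atypical members that repress them and need no DP partner. The pocket protein RBL1 (p107) can join repressor E2Fs, a DP protein and the MuvB core, to which LIN9 belongs, in the DREAM complex, which silences cell cycle genes in resting cells. In dividing cells the MuvB core instead binds MYBL2 (B-MYB) and then FOXM1, and these complexes switch on genes of G2 and mitosis. Several of the regulators are themselves E2F targets, and E2F7 is also a known target of p53.

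Promoter sequence of the regulators is shown first because members that share E2F words can then be set beside their responses. RefSeq windows on GRCh38.p14, from 250 bases before to 50 bases after an annotated start, were matched for 8 of the 10 genes (11 windows). No window was found for E2F8 and FOXM1, so their promoters were not searched. An E2F word was any of TTTGGCGC, TTTGCCGC, TTTCGCGC and TTTCCCGC on either strand. Such a word stood in 5 of the 11 windows, those of E2F1, E2F2, E2F3 (its upstream start), RBL1 and TFDP1, and in 3.31% of all 35116 windows. The last 60 bases before the start are given 5′ to 3′ on the strand of the gene, with E2F words in capitals. E2F1 (chr20:33686386-33686445, minus strand), RBL1 (chr20:37095998-37096057, minus strand), E2F2 (chr1:23531234-23531293, minus strand) and E2F3 (chr6:20401819-20401878, plus strand) are shown for their words. MYBL2 (chr20:43667054-43667113, plus strand) and E2F7 (chr12:77065570-77065629, minus strand) are shown as windows that held no word of this set.
E2F1: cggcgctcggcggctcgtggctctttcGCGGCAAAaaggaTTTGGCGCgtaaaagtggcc
RBL1: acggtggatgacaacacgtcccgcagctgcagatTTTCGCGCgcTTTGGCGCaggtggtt
E2F2: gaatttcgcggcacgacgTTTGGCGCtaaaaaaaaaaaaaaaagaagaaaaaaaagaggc
E2F3: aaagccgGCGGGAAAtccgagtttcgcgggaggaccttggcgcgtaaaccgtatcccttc
MYBL2: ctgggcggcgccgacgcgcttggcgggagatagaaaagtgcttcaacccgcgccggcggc
E2F7: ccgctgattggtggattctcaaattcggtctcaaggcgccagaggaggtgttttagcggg

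E2F1 held 2 words, at positions -33 and -20 from the start, and RBL1 held 2, at -26 and -16. E2F2 held 1 word at -42 and E2F3 held 1 at -53, while the word of TFDP1 lay farther out, at -120. With the first T left off, which takes in every longer word as well, a word stood in 7 windows, and in 13.0% of all windows. The added windows were those of E2F7, at -176 and -133, and a LIN9 start, at -7. The cell cycle homology region words TTTGAA and TTCGAA, of the kind that MuvB binds, stood in the windows of E2F3 and of 1 of the 3 LIN9 starts, and in 16.4% of all windows. CCAAT, the word of NF-Y, stood in the windows of E2F1 (3 times), E2F3 (4 times) and E2F7 (4 times), and in 34.6% of all windows. The window of MYBL2 held none of these words. A match describes letters in a window and is not evidence of binding. A window without a word is not evidence that E2F does not bind, since sites of other spelling were not sought.

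**Figure D1:**
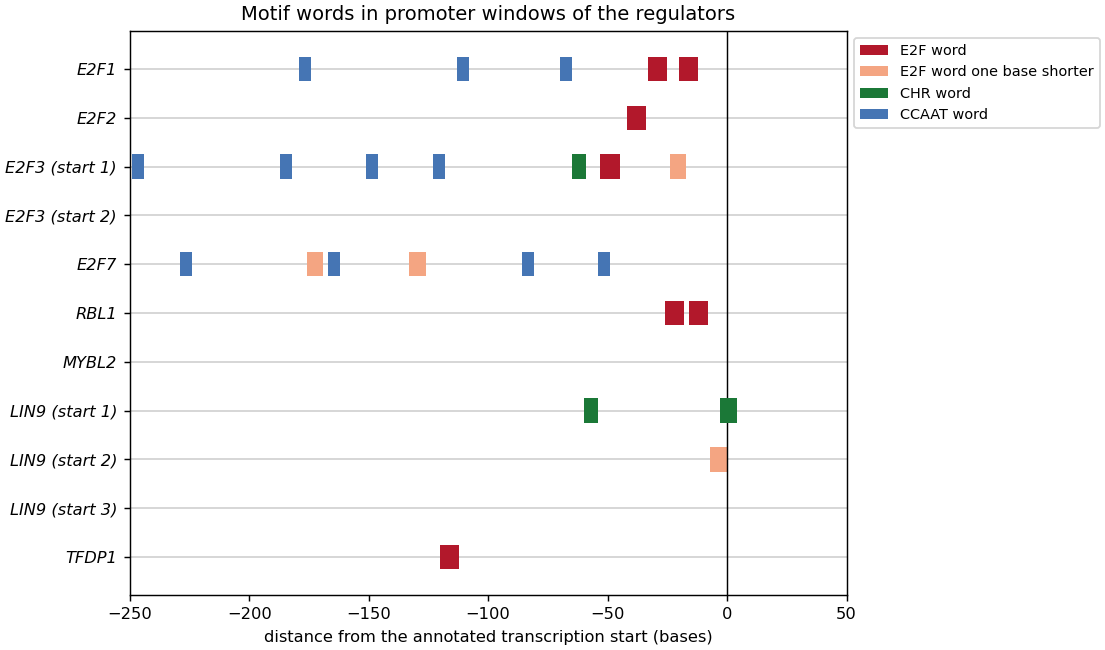
Positions of motif words in the promoter windows of 8 regulators (11 annotated starts, numbered along the chromosome). The horizontal axis is distance from the start in bases, each grey line is a window and each coloured bar a word on either strand. E2F words of 8 bases lie between -53 and the start in E2F1, E2F2, E2F3 and RBL1, and at -120 in TFDP1.

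Values are log2 expression values made by the authors with robust multi-array averaging (RMA), and a difference of 1 is a 2-fold difference. Array medians lay between 7.24 and 7.33. A pair of control arrays lay away from their groups on the first principal component over all probe sets, which held 44.2% of the variance. Lo pemetrexed arrays had scores of 34.3 to 38.4 there, Lo control replicates 1 and 2 had 10.0 and 7.74, and Hi arrays other than Hi control replicate 3 had -24.6 to -20.3. By contrast, Lo control replicate 3 scored -23.7, within the range of those Hi arrays, and Hi control replicate 3 scored 10.5, next to those Lo controls. Over all probe sets Hi control replicate 3 had a mean Pearson's r of 0.9951 with Lo control and 0.9927 with other Hi control arrays. For Lo control replicate 3 the mean r was 0.9954 with Hi control and 0.9935 with other Lo control arrays. The cause was not tested. The 2 arrays kept their labels, and results that rest on them are also given without both. Of the endothelial markers PECAM1 and CDH5 stood above 98.7% or more of genes and VWF at the 50.5th percentile, and of epithelial markers KRT8 and KRT18 stood at the 96.4th and 96.2nd percentiles but EPCAM at the 14.8th. Among leukocyte markers PTPRC stood at the 1.4th percentile, CD3E at the 18.2nd and CD14 at the 34.5th, but CD68 at the 97.2nd. Among fibroblast and smooth muscle markers ACTA2 stood at the 94.9th percentile and the others at the 29th to 53.9th. RMA values have no true zero, and no detection call was used here.

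In Lo cells 6 of the 10 regulators fell under pemetrexed and 0 rose (limma, Benjamini-Hochberg adjusted p under 0.05 over all genes). Of all genes 10.7% were called by the same rule, 5.14% lower and 5.60% higher. The median change of the 10 was -0.66 on the log2 scale, against 0.02 for all genes. FOXM1, RBL1, LIN9, E2F8, E2F1 and MYBL2 were the genes that fell. Total RNA was measured, so fewer dividing cells and less of these transcripts per cell cannot be told apart. Every Lo pemetrexed array lay below every Lo control array for 7 of the 10 genes, as it did for 14.1% of all genes.

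FOXM1, the forkhead factor that drives genes of G2 and mitosis, had the largest fall of the 10. Its values were 9.54, 9.34 and 9.02 in Lo pemetrexed arrays and 10.81, 10.81 and 10.78 in Lo control arrays. The Lo controls were nearly equal, and the gap to the highest treated array was more than 1 log2 unit. The change was -1.50 ± 0.14 (SE), 2.82-fold lower (limma, Benjamini-Hochberg adjusted p = 3.88e-05), and it ranked 34 among all genes by the size of the fall. MYBL2, the MYB family factor that precedes FOXM1 on the MuvB core, also fell. It had 9.69, 9.61 and 9.34 in Lo pemetrexed arrays, against 9.94, 10.06 and 10.14 in Lo control arrays. The groups did not overlap, and the change was -0.50 ± 0.13, 1.41-fold lower (limma, Benjamini-Hochberg adjusted p = 0.0265). MYBL2 lost its call without Lo control replicate 2 or 3 or Lo pemetrexed replicate 2 or 3 (limma adjusted p up to 0.116), and without both arrays that lay apart (-0.45 ± 0.14, limma adjusted p = 0.0578).

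LIN9, the MuvB subunit, had 6.91, 6.81 and 6.67 in Lo pemetrexed arrays and 7.58, 7.72 and 7.74 in Lo control arrays. All treated arrays were thus lower, with a change of -0.89 ± 0.15 (limma, Benjamini-Hochberg adjusted p = 0.00292). RBL1, the pocket protein of DREAM that is itself cell cycle regulated, had 8.77, 8.86 and 8.75 in Lo pemetrexed arrays, against 9.68, 9.81 and 9.92 in Lo control arrays. The treated arrays lay close together and well below the controls, and RBL1 was 2.01-fold lower, at -1.01 ± 0.11 (limma, Benjamini-Hochberg adjusted p = 0.000174).

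Of the 3 activator E2Fs, E2F1 fell and E2F2 and E2F3 did not pass. E2F1 had 9.27, 9.21 and 9.21 in Lo pemetrexed arrays and 9.90, 10.02 and 10.23 in Lo control arrays. The treated arrays were tightly grouped below the controls, and E2F1 fell by 0.82 ± 0.12 on the log2 scale, 1.76-fold (limma, Benjamini-Hochberg adjusted p = 0.00106). E2F2 had 6.86, 6.84 and 7.02 in Lo pemetrexed arrays and 7.20, 6.93 and 7.02 in Lo control arrays, and E2F3 had 7.80, 7.87 and 7.95 in Lo pemetrexed arrays and 7.70, 8.03 and 7.80 in Lo control arrays. For both genes the groups overlapped. E2F2 differed by -0.14 (95% confidence interval -0.39 to 0.10) and E2F3 by 0.03 (-0.19 to 0.25), and neither passed limma's test. The upper end of the interval of E2F1 was -0.55, below the lower ends of both. E2F1, E2F2 and E2F3 all hold an E2F word in the windows shown above, and the part of these words in the responses was not tested. E2F2 was dim, with group means of 6.91 to 7.15, and its limit of detection is not known. TFDP1, the DP partner, had 11.09, 11.48 and 11.08 in Lo pemetrexed arrays, against 11.49, 11.73 and 11.54 in Lo control arrays. The highest treated array lay just below the lowest control, and the difference of -0.37 ± 0.14 did not pass (limma, Benjamini-Hochberg adjusted p = 0.125).

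Of the 2 atypical repressors E2F8 fell. It had 9.03, 8.86 and 8.95 in Lo pemetrexed arrays and 9.84, 9.98 and 9.50 in Lo control arrays. It was lower in every treated array, by 0.83 ± 0.19 on the log2 scale (limma, Benjamini-Hochberg adjusted p = 0.0133). It lost the call without Lo control replicate 2 or without Lo pemetrexed replicate 2 (limma adjusted p = 0.0548 and 0.0515), while without both arrays that lay apart the change was -0.96 ± 0.19 (limma adjusted p = 0.00665). E2F7 had 11.53, 11.58 and 11.61 in Lo pemetrexed arrays, against 11.25, 11.20 and 11.37 in Lo control arrays. It was the only regulator of the 10 with every treated Lo array above every Lo control, as was the case for 15.7% of all genes, but the difference of 0.30 ± 0.10 did not pass over all genes with 12 arrays (limma, Benjamini-Hochberg adjusted p = 0.0909). It passed without both arrays that lay apart, at 0.35 ± 0.10 (limma adjusted p = 0.0486), and in 5 of 21 alternatives in all (limma adjusted p from 0.0250 to 0.230).

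**Figure D2:**
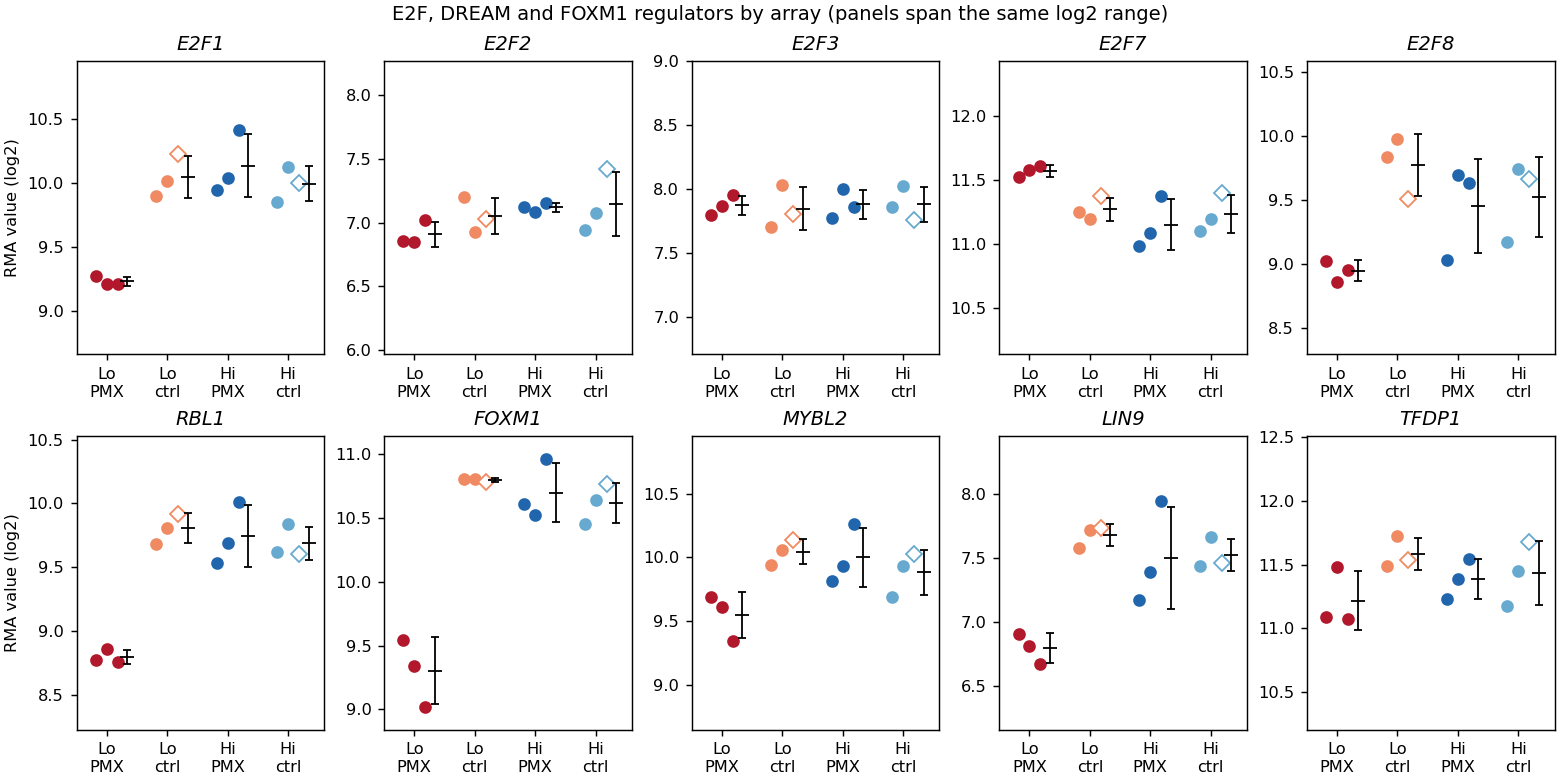
RMA values (log2, vertical axis) of the 10 regulators on each array, by group (PMX, pemetrexed, and ctrl, control). Points are arrays in replicate order, open diamonds the arrays labelled Lo control replicate 3 and Hi control replicate 3, and bars the mean ± SD of 3 arrays. FOXM1, RBL1, LIN9, E2F8, E2F1 and MYBL2 are lower in all Lo pemetrexed arrays than in all Lo control arrays.

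Of 8 markers of the endothelial parent, 4 fell in Lo pemetrexed cells (CDH5, TEK, ERG and EGFL7), where 5.14% of all genes fell. PECAM1, VWF, KDR and ESAM were lower on average but did not pass. The log2 of the summed level of all 8 was 13.73 to 13.92 in Lo pemetrexed arrays, against 14.25 to 14.76 in Lo control arrays. Of the 5 epithelial, 4 leukocyte and 5 fibroblast and smooth muscle markers measured, 0 passed. The summed level of the last list was 12.11 to 12.29 in Lo pemetrexed arrays, against 11.51 to 11.96 in Lo control arrays. Such a sum mostly follows its brightest genes. ACTA2, the brightest of that list, changed by 0.50 (limma adjusted p = 0.0562), and the others changed by 0.02 to 0.07. The summed level of the leukocyte list was 12.15 to 12.32 in Lo pemetrexed arrays and 11.97 to 12.24 in Lo control arrays. CD68, the brightest of that list, changed by 0.12, and the others changed by -0.09 to 0.08. The summed level of the epithelial list was 12.71 to 12.95 in Lo pemetrexed arrays and 12.77 to 13.06 in Lo control arrays. The part of these shifts in the results was not tested.

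In Hi cells 0 of the 10 regulators passed the test between pemetrexed and control arrays, as did 0% of all genes (limma over 18417 genes). At an unadjusted p under 0.05 there were 0 of the 10 regulators and 266 genes in all. FOXM1 had 10.61, 10.52 and 10.96 in Hi pemetrexed arrays and 10.45, 10.64 and 10.76 in Hi control arrays. The groups overlapped, as they did for each of the 10 genes (of all genes, 2.96% were lower and 2.48% higher in every Hi pemetrexed array), and the difference was 0.08 (95% confidence interval -0.22 to 0.38). E2F1 had 9.95, 10.04 and 10.42 in Hi pemetrexed arrays, against 9.85, 10.13 and 10.00 in Hi control arrays, a difference of 0.14 (-0.12 to 0.41). The differences of the 10 regulators ran from -0.09 for E2F7 to 0.14 for E2F1. The widest intervals were those of E2F8 (-0.48 to 0.33) and LIN9 (-0.35 to 0.32). For LIN9 the Hi pemetrexed arrays spread over 7.17, 7.39 and 7.95, more than the Hi controls at 7.44, 7.67 and 7.46. Without both arrays that lay apart, 0 regulators passed either.

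The responses differed between the cultures for 4 of the 10 regulators, tested as the Lo response minus the Hi response, and 4.81% of all genes passed this test, 2.24% with a lower and 2.57% with a higher response in Lo cells. The difference was -1.58 ± 0.19 for FOXM1, -1.07 ± 0.16 for RBL1, -0.96 ± 0.17 for E2F1 and -0.87 ± 0.22 for LIN9 (limma, Benjamini-Hochberg adjusted p = 0.00102, 0.00353, 0.00874 and 0.0421). LIN9 lost this call in 11 of 20 alternatives (limma adjusted p from 0.0135 to 0.142), among them the fit without both arrays that lay apart (-0.81 ± 0.25, limma adjusted p = 0.109) and the fits without any 1 of the Lo arrays, without Hi control replicate 1 or 3 or without Hi pemetrexed replicate 2. MYBL2 (-0.61 ± 0.18), E2F8 (-0.75 ± 0.26), TFDP1 (-0.32 ± 0.20) and E2F7 (0.39 ± 0.15) did not pass, so a difference between their responses in Lo and Hi cells was not established. E2F2 and E2F3 differed by -0.12 ± 0.16 and 0.03 ± 0.14.

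**Figure D3:**
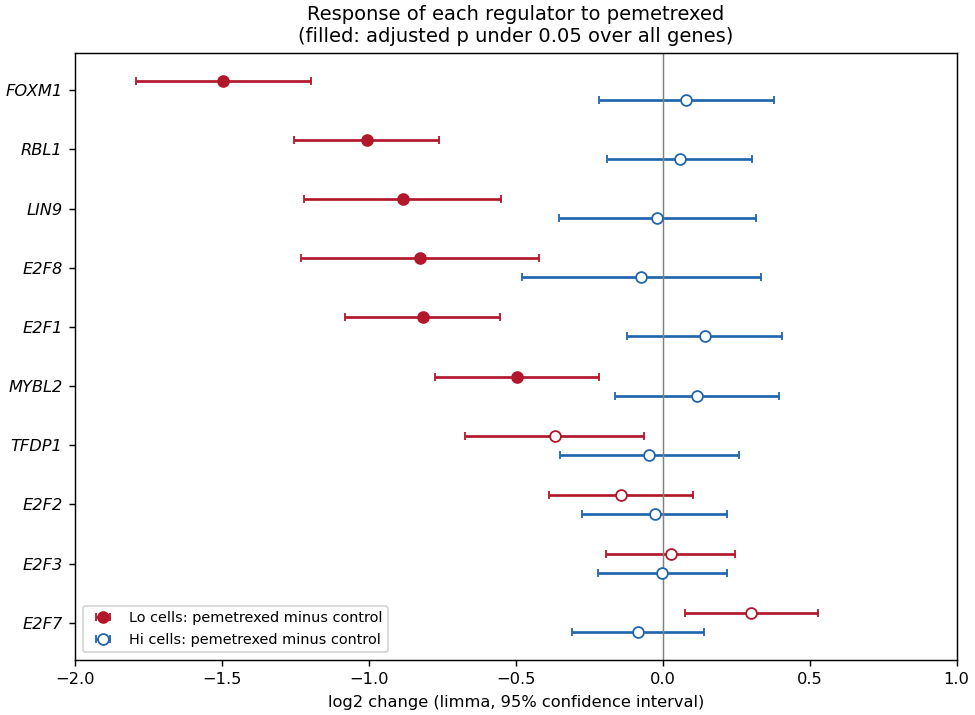
Change of each regulator under pemetrexed (horizontal axis, log2, limma estimate with 95% confidence interval), in Lo cells (red, upper) and Hi cells (blue, lower), ordered by the change in Lo cells. Filled points passed at an adjusted p under 0.05 over all genes. The Lo estimates run from -1.50 for FOXM1 to 0.30 for E2F7, and the Hi estimates from -0.09 to 0.14.

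Low folate alone was examined by Lo control against Hi control arrays, and 0 of the 10 regulators passed, as did 0% of all genes (limma, 387 genes and 0 regulators at an unadjusted p under 0.05). FOXM1 had 10.81, 10.81 and 10.78 in Lo control arrays and 10.45, 10.64 and 10.76 in Hi control arrays. It was the only regulator whose control groups did not overlap, as was the case for 2.14% of all genes in that direction and 3.61% in the other, with a difference of 0.18 ± 0.14. E2F8 had the largest difference, 0.25 ± 0.19. Without both arrays that lay apart 7.17% of genes passed, and still 0 regulators, with FOXM1 at 0.26 ± 0.17 and E2F8 at 0.45 ± 0.21 (limma adjusted p = 0.497 and 0.291).

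Between treated cells, Lo pemetrexed against Hi pemetrexed, 5 regulators were lower and 1 was higher, where 22.3% of all genes passed, 11.0% lower and 11.3% higher. Groups did not overlap for 7 regulators that were lower, E2F2 and E2F8 among them, and for 1 that was higher, against 18.7% and 18.6% of all genes. This comparison shares the Lo pemetrexed arrays with the first. All 8 endothelial markers were lower as well, with a summed level of 14.70 to 14.86 in Hi pemetrexed arrays, and their part in the result was not tested. FOXM1 (-1.40 ± 0.14), RBL1 (-0.95 ± 0.11), E2F1 (-0.91 ± 0.12), LIN9 (-0.71 ± 0.15) and MYBL2 (-0.45 ± 0.13) were lower in Lo pemetrexed cells. E2F7 was higher: it had 11.53, 11.58 and 11.61 in Lo pemetrexed arrays and 10.99, 11.09 and 11.37 in Hi pemetrexed arrays. All 3 Lo arrays exceeded all 3 Hi arrays, by 0.42 ± 0.10 (limma, Benjamini-Hochberg adjusted p = 0.0115), and E2F7 passed in all 21 alternatives of this comparison (limma adjusted p from 0.000478 to 0.0485). MYBL2 lost its call without Hi pemetrexed replicate 3 or Lo pemetrexed replicate 3 (limma adjusted p = 0.101 and 0.107). E2F8 did not pass (-0.51 ± 0.19, limma adjusted p = 0.0722), though it did without both arrays that lay apart (limma adjusted p = 0.0452), without Hi control replicate 1 (0.0438) and without Hi pemetrexed replicate 1 (0.0129). For E2F8 the order of group means was thus Lo pemetrexed (8.95 ± 0.08), Hi pemetrexed (9.45 ± 0.37), Hi control (9.53 ± 0.31) and Lo control (9.77 ± 0.24, SD, n = 3 each), and of these neighbours none passed limma's test in the comparisons made.

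Transcripts of proteins that work beside the regulators responded in mixed directions in Lo cells. Of 9 complex partners and other family members, 3 fell and 1 rose under pemetrexed, with a median of 0.03. By the same test 5.14% of all genes fell and 5.60% rose. The DP family member TFDP2 (-0.56 ± 0.12), the pocket protein RBL2 (p130, -0.50 ± 0.11) and the histone-binding MuvB subunit RBBP4 (-0.33 ± 0.07) fell. The MuvB subunit LIN37 rose by 0.56 ± 0.10, with a mean of 10.98 in Lo pemetrexed arrays, against 10.42 in Lo control arrays (limma, Benjamini-Hochberg adjusted p = 0.00321). The other MuvB subunits LIN52 (-0.33 ± 0.13) and LIN54 (0.22 ± 0.10), the retinoblastoma gene RB1 (0.05 ± 0.08) and the repressors E2F4 (0.03 ± 0.07) and E2F6 (0.05 ± 0.10) did not pass. In Hi cells 0 of the 9 passed, as did 0% of all genes. The responses of TFDP2, RBL2 and RBBP4 differed between Lo and Hi cells (-0.73 ± 0.17, -0.62 ± 0.15 and -0.38 ± 0.10), while without both arrays that lay apart 0 of the 9 did. Of all genes 4.81% differed with all arrays and 4.16% without both.

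Of 14 measured G1 kinases, inhibitors and other controllers, 5 fell and 1 rose in Lo pemetrexed cells, with a median of -0.31. The shares over all genes were 5.14% lower and 5.60% higher. Cyclin A2 (CCNA2, -1.58 ± 0.12), which partners CDK2 in S phase, SKP2 (-1.11 ± 0.11), a ubiquitin ligase subunit that marks the inhibitor p27 for degradation, and cyclin F (CCNF, -0.86 ± 0.09), a ligase subunit that acts on activator and atypical E2Fs, were lower. The gene that rose was CDKN1A, the p53-induced inhibitor p21 (0.71 ± 0.09). In Hi cells 0 of the 14 passed, as did 0% of all genes.

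Most of the listed target genes fell in Lo cells, against 5.14% of all genes. Of 21 measured G1/S targets of E2F, 15 fell and 0 rose, with a median of -0.76 on the log2 scale. Those with the smallest p were MCM6 (-1.68 ± 0.13) and MCM5 (-1.03 ± 0.09), subunits of the replicative helicase, its cofactor CDC45 (-1.25 ± 0.15) and the DNA polymerase alpha subunit POLA1 (-0.85 ± 0.10). Of 27 measured G2/M targets of MuvB, MYBL2 and FOXM1, 24 fell and 0 rose, with a median of -1.04. Those with the smallest p were the mitotic kinase PLK1 (-2.44 ± 0.12), the spindle checkpoint kinase BUB1 (-1.92 ± 0.12), the mitotic cyclin CCNB2 (-1.49 ± 0.10) and the ubiquitin-conjugating enzyme UBE2C (-1.38 ± 0.10) of the anaphase-promoting complex pathway. These lists were put together with earlier results of these data known, so their counts are not independent evidence. In Hi cells 0 genes of both lists passed, as did 0% of all genes, so this is not particular to the lists. The medians there were 0.02 for G1/S targets and -0.09 for G2/M targets. In control cells 0 passed with all arrays, as did 0% of all genes. Without both arrays that lay apart, 8 G2/M targets were higher and 1 lower in Lo control than in Hi control cells, with 2 G1/S targets higher. In that fit 7.17% of all genes passed.

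**Figure D4:**
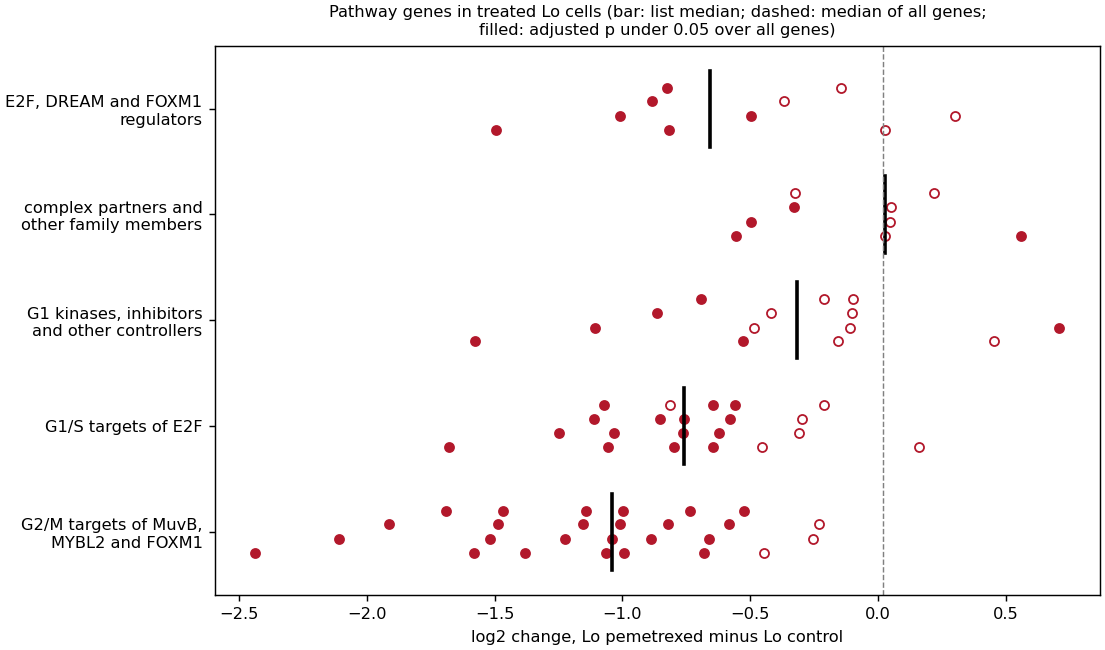
Change in Lo pemetrexed against Lo control cells (horizontal axis, log2) of the 10 regulators and of genes of 4 pathway lists (rows). Each point is a gene, filled where it passed at an adjusted p under 0.05 over all genes, black bars are list medians and the dashed line is the median of all genes, 0.02. The list medians are -0.66 for the regulators, 0.03 for partners, -0.31 for G1 controllers, -0.76 for G1/S targets and -1.04 for G2/M targets.

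For each regulator the genes with the most similar profile were sought by Pearson's r over the 12 arrays, a description in which the arrays share their group differences. FOXM1 was nearest to the mitotic kinase AURKB (r = 0.994), the kinesin KIF18B (0.990) and CCNF (0.981). RBL1 was nearest to the primase subunit PRIM1 (0.992), the chromatin assembly subunit CHAF1B (0.990) and the kinetochore subunit SPC24 (0.990). E2F1 was nearest to DTNB (0.985), the lamina-associated TMPO (0.981) and RBL1 (0.981), and LIN9 to TIAM1 (0.975), the centralspindlin subunit RACGAP1 (0.974) and TCF19 (0.968). E2F8 was nearest to CKAP2L (0.974), the glycosylase NEIL3 (0.965) and the centriole gene STIL (0.953). MYBL2 was nearest to DCLRE1B (0.942), RMI2 (0.941) and MND1 (0.930), and TFDP1 to the thymidylate synthase gene TYMS (0.958), CMSS1 (0.929) and MAD2L1 (0.924). E2F7 was nearest to RRM2B (0.943), the p53-induced ribonucleotide reductase subunit, the amino acid transporter SLC38A1 (0.934) and the kinase MAP2K3 (0.931). E2F3, nearest to ZNF644 (0.906), ABITRAM (0.901) and CHIC1 (0.885), and E2F2, nearest to NANOS2 (0.872), H3-4 (0.864) and SLCO2A1 (0.855), had the lowest values of likeness. Each gene was picked as a highest r out of all genes over 12 arrays, which alone gives high values. No test was made, so these values are not evidence of a link, least of all for the lowest.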

How the data were processed

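Total RNA of 12 EA.hy926 cultures was biotin-labelled with an Affymetrix kit and hybridised to arrays, per the labels' protocols. The authors deposited a log2 value for each probe set, computed by RMA in Partek 6.5, per the submitters' processing notes, with settings not given in the sources used here. Of 33297 probe sets, 19460 had 1 gene symbol in the array's annotation, 1754 had several and 12083 had none, and symbols were updated by Entrez identifier to RefSeq (GRCh38.p14, 19429 found). The brightest probe set by mean over all arrays stood for each of the 18417 genes. No further normalization or filter was applied. The 12 arrays entered 1 linear model with the 4 groups as its terms (limma 3.58.1, R 4.3.3), leaving 8 residual degrees of freedom. Its 5 contrasts were tested two-sided with Benjamini-Hochberg adjustment over all genes and a threshold of 0.05. The code was tested on simulated data. Errors after ± are standard errors unless marked SD. P-values reflect variation among cultures labelled biological replicates of 1 line, and precision is limited by the number of arrays.

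The members and lists were chosen with earlier results of these data known. All 10 members are named, together with every partner, up to 4 called genes with the smallest p of each other list, and for each member the 3 genes with the highest r. CDKN2C, CENPA and some other listed genes were not analysed here. Alternatives were leaving out each array, or the 2 control arrays that lay apart, the replicate number as a block, only the groups of a contrast, other variance settings, median centring, a filter on dim genes and the mean of all probe sets. With all arrays kept, 11 of 18 same-numbered pairs had deviations from the group means correlating above 0.1 (-0.656 to 0.514). The most alike array of another group had the same number for 5 of 12 arrays. Without the 2 control arrays all 13 pairs correlated above 0.1 (0.115 to 0.543), and the number matched for 8 of 10 arrays. With 2 arrays in a group, however, their deviations are opposite by construction. Pairing was thus not settled, and the replicate block is given as an alternative only.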

Additional observations from a re-analysis of the deposited data

Results flagged for a closer look

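The responses to pemetrexed of 4 regulators differed between Lo and Hi cells by the test of the difference itself (limma interaction, Benjamini-Hochberg adjusted over 18417 genes). Of all genes 4.81% passed it. The Lo response minus the Hi response was -0.96 for E2F1, -1.07 for RBL1, -1.58 for FOXM1 and -0.87 for LIN9. For each of these genes all 3 Lo pemetrexed arrays lay below all 3 Lo control arrays while the Hi groups overlapped. Of all genes 14.1% were lower in every Lo pemetrexed array. In Hi cells 2.96% were lower and 2.48% higher in every treated array. The 4 genes were picked by a test on these same arrays, so the pattern is not separate support. FOXM1 and RBL1 passed in all 20 alternatives run for this test, and E2F1 in 19, missing the threshold without variance moderation (limma adjusted p = 0.0557). LIN9 passed in 9 of the 20 (limma adjusted p up to 0.142) and lost its call without both arrays that lay apart (limma adjusted p = 0.109).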

How the results depend on the processing

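The number of regulators called in Lo cells (6) lay between 4 and 7 when single arrays were left out, at 3 to 5 for the interaction (4) and at 5 to 7 between treated cells (6), and it stayed at 0 in the other comparisons. Over all genes the same fits called 1170 to 2563, 443 to 956 and 2855 to 4607, and 0 in the other comparisons. Without variance moderation 2 regulators were called in the interaction and 4 in Lo cells. With the replicate block 7 were called in Lo cells, the added gene being E2F7 (0.30 ± 0.07, limma adjusted p = 0.0250), 4 in the interaction and 6 between treated cells. Calls over all genes rose as well, to 2248, 994 and 4492, from 1978, 886 and 4107 with no block. With the block and without both arrays that lay apart the numbers were 8, 5 and 7, with TFDP1 (-0.40 ± 0.10, limma adjusted p = 0.0196) and E2F7 added in Lo cells, E2F8 (-0.96 ± 0.21, limma adjusted p = 0.0134) in the interaction and E2F8 (-0.51 ± 0.13, limma adjusted p = 0.00946) between treated cells. Set against the same 10 arrays with no block, the block added MYBL2 and TFDP1 in Lo cells and LIN9 and E2F8 in the interaction, and it changed no other call of a regulator. Over all genes it raised the calls from 2018 to 3385 in Lo cells and from 767 to 1738 in the interaction. In Lo cells FOXM1, RBL1, E2F1 and LIN9 passed in all 21 alternatives. No called regulator changed sign, and of 695 values that passed neither way 42 did. Over all genes the count in Lo cells was 1978 with all arrays, 1210 without Lo control replicate 3, 1282 and 1170 without Lo pemetrexed replicates 1 and 3, 3385 with the block and without both arrays, and 1262 without moderation. For the interaction it was 886, with 443 to 956 without single arrays, 291 without moderation and 1738 with the block and without both arrays. The single arrays that lowered it by over 1.5 times were Lo pemetrexed replicates 1, 2 and 3 (568, 584 and 443), Lo control replicate 3 (572) and Hi pemetrexed replicates 2 and 3 (506 and 539). With the block and without both arrays it was 6554 between treated cells, against 4107 with all arrays. In control cells 1320 genes passed without both arrays, and 2422 with the block as well, against 0 with all arrays. The causes were not tested. Signal over background was not available to the tests, so a limit of detection for dim genes such as E2F2 and LIN9 is not known.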

Other observations

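E2F7 and E2F8, which act in similar complexes, were also compared within arrays, a pair chosen after their values were seen. The log2 value of E2F7 minus that of E2F8 was 2.50, 2.72 and 2.66 in Lo pemetrexed arrays and 1.41, 1.22 and 1.87 in Lo control arrays. In Hi pemetrexed arrays it was 1.96, 1.39 and 1.74, and in Hi control arrays 1.94, 1.45 and 1.73. All Lo pemetrexed arrays exceeded the other 9. The mean in Lo pemetrexed arrays minus that in Lo control arrays was 1.13, given as a description with no test because the pair was chosen for this pattern. Levels of different probe sets are not comparable, so these values do not give the relative abundance of the 2 genes.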
